A study of Mus musculus with 6 samples.

Results

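The genes that encode the proteins of the cytosolic ribosome were followed across 6 RNA sequencing libraries of partially reprogrammed mouse cells. Members were all gene symbols made of Rpl or Rps followed by a number (with an optional a, l or x), by an a, or by p0 to p2, and no measured value entered that choice. The rule took 81 of the 20325 genes of the files: 43 large subunit genes, 31 small subunit genes, the 3 genes of the stalk (Rplp0, Rplp1 and Rplp2) and 4 paralogs (Rpl3l, Rpl10l, Rpl39l and Rps27l). Fau and Gnb2l1, which also encode ribosomal proteins, fall outside it and are given separately.

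The 2 lines were pre2-2 and pre3, described by the submitters as pre-iPSCs, cells halted part of the way to induced pluripotency. Both were OG2 cells (OG2 mice carry GFP under the Pou5f1 promoter) at passage 10 on a mixed strain background of 129SVJ (1/2), C57B6 (3/8) and CBA (1/8). All 6 libraries came from cells that received vitamin C at 50 µg/ml in embryonic stem cell medium, which also held LIF. Each line gave 1 untransfected library, 1 transfected with control siRNA and 1 transfected with siRNA against Tet1, an enzyme that oxidises methylated cytosine, so a treatment has 2 libraries and a line has 3. Timing is labelled in conflicting ways, with vitamin C added 16 h after transfection and RNA taken 32 h later in one place, and 48 h from transfection with 36 h of vitamin C in another; cell type is labelled fibroblast in one field and pre-iPSC in another. Nothing says that libraries of a line were separate cultures, so the p-values measure the spread between these libraries, which may be technical, and each line stands for itself only.

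Cytosolic ribosomal proteins assemble with ribosomal RNA in the nucleolus into a small subunit, which decodes the messenger, and a large subunit, which forms peptide bonds. Most are made in equal numbers, their genes are short and very highly transcribed, and their messengers usually begin with a C followed by pyrimidines (a 5′ terminal oligopyrimidine tract), through which mTOR signalling sets their translation. Mouse and other mammalian genomes hold many processed copies of these genes, some of them nearly identical in sequence to the parent.

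Library totals were 1868640 to 2582803 expected counts, and 13506 to 14128 genes had a count. Tet1 itself stood at 250.02, 246 and 154 in pre2-2 and 205, 251 and 159 in pre3 CPM (counts scaled to library size with TMM factors, in the order untransfected, control siRNA, siTet1, as in every such series below), a log2 fold change of -0.67 (SE 0.13, adjusted p = 0.0043) for siTet1 against control siRNA. Of 9 pluripotency markers, 7 to 9 had a count in each library and their summed level was 2564 to 3279 TPM (the estimated share of transcripts on a scale common to all libraries, a level corrected for transcript length) in pre2-2 and 9786 to 10846 in pre3. Only 5 of the 9 pluripotency markers passed the filter on low counts. All 9 fibroblast markers had a count in every library, and their sum was 1505, 2706 and 2384 TPM in pre2-2 and 690.3, 770.0 and 732 in pre3. Summed endothelial markers were at 12.1 to 49.4 TPM, haematopoietic at 16.5 to 61.1, neural at 17.5 to 149 and muscle at 2.94 to 12.7. Of the 3 muscle markers, Myod1 and Myog were at 0 in all 6 libraries, and 1 had a count in each.

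Together the 81 members made up 19.4% of all transcripts in untransfected, 17.6% in control siRNA and 17.2% in siTet1 cells of pre2-2. In pre3 the shares were 21.4, 19.4 and 20.1%. The untransfected library was the highest in each line, and each pre3 library lay above the pre2-2 library of the same treatment. Large subunit genes took 8.53 to 10.8%, small subunit genes 7.33 to 9.02% and the stalk 1.24 to 1.45% of transcripts, each highest in the untransfected library of its line. In pre2-2 all 3 groups of genes were lowest with siTet1; in pre3 both subunits were lowest with control siRNA and the stalk with siTet1 (1.36%, against 1.38% with control siRNA). Since the members are short, they held less of the reads, 6.05 to 8.33% of expected counts. These 6 shares are given without a test; an exact permutation test that ignores the line or treatment could not give a p below 0.33 for 2 libraries against 2, or below 0.1 for 3 against 3. In such bulk libraries fewer cells of a kind and less RNA per cell cannot be told apart.

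**Figure D1:**
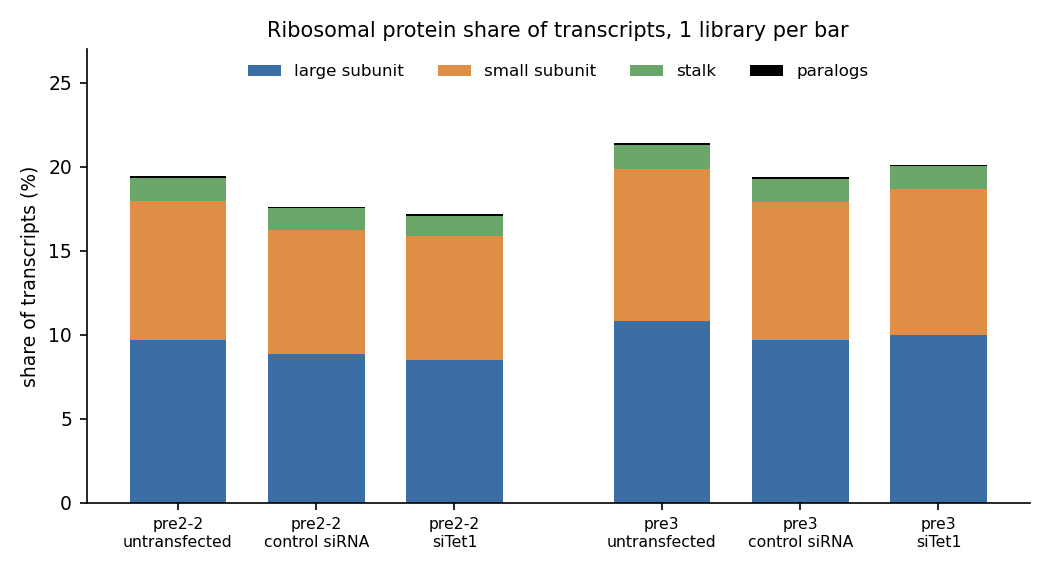
Share of all transcripts (%) taken by the members, 1 bar per library, stacked by large subunit, small subunit, stalk and paralogs. The share is between 17.2 and 21.4% and is highest in the untransfected library of each line.

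Levels of single members were close to each other. Among the 76 members that passed the filter on low counts, the median of the mean level over 6 libraries was 2415 TPM, against 28.6 TPM for all genes tested, and the middle 50% lay between 1844 and 3179 TPM. Of the 100 genes with the highest mean level in these files, 62 were members. The highest 5 were Rps12 (6061 TPM), a small subunit protein, Rplp1 (5923 TPM) of the stalk that recruits translation factors, Rps2 (5083 TPM) at the messenger entry of the small subunit, Rpl41 (4863 TPM), which encodes a very short basic peptide, and Rps18 (4589 TPM) of the small subunit head. Rps12, Rplp1, Rps2 and Rpl41 were among the 5 highest in each of the 6 libraries. The tested members varied little: the highest library was a median of 1.41 times the lowest in CPM, and Rps23 and Rps25 exceeded 2 times. Rps27, Rpl10l, Rpl3l and Rpl39l were among the members that did not pass the filter and entered no test.

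**Figure D2:**
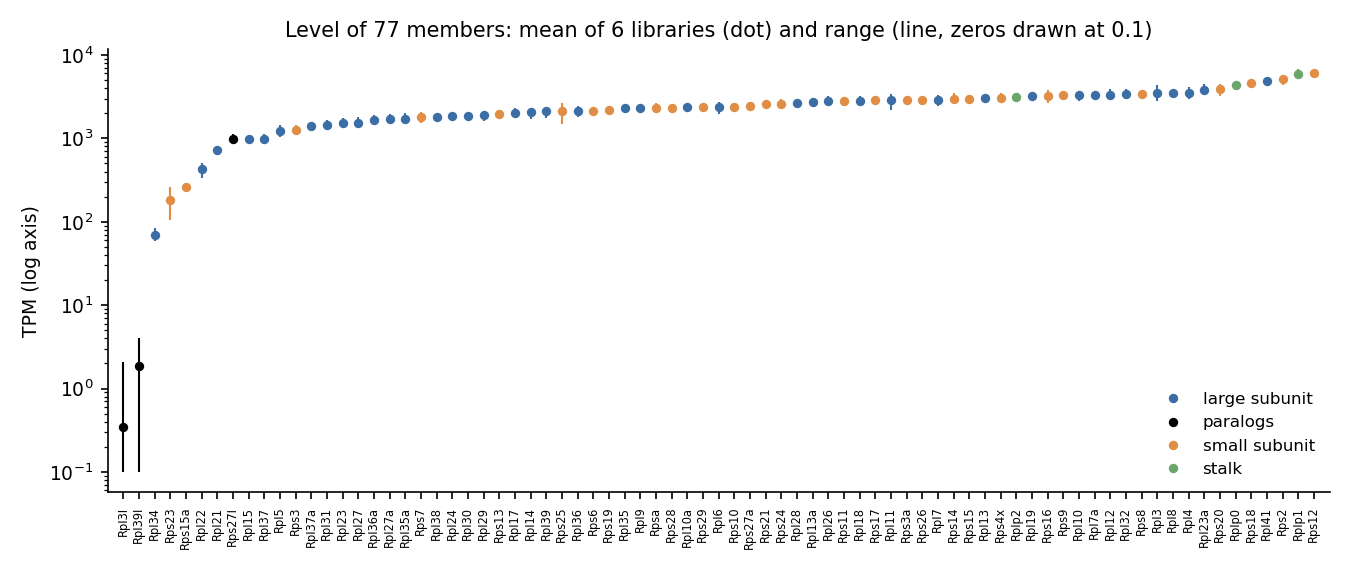
Level of 77 members in TPM (log axis), ordered by their mean over 6 libraries, with lines for the range over libraries; Rps27 and Rpl10l, at 0, are among those not drawn. Most members form a plateau, and the left end holds 2 of the paralogs together with Rpl34 and Rps23.

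Members at the low end were mainly of 2 kinds, paralogs with a restricted tissue and genes with a nearly identical copy elsewhere in the files. Rpl10l, a testis copy of Rpl10, had 0 counts in all 6 libraries, which allows up to 1.16 to 1.61 CPM at a floor of 3 counts per library. Rpl3l, the striated muscle form of Rpl3, had a count in 1 library only, and Rpl39l, a testis form of Rpl39, was at a mean of 1.85 TPM. Their main copies Rpl10, Rpl3 and Rpl39 were at 3276, 3455 and 2106 TPM. Rps27l, a paralog of Rps27 known as a p53 target, was at 979 TPM, and of the paralogs outside the rule Rpl22l1 was at 568, Rpl7l1 at 142 and Rpl36al at 1001 TPM.

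The second kind included Rps27, Rpl34 and Rps23. Rps27, of the small subunit, had 0 expected counts in each library; Gm9846, now named Rps27rt, had 1084, 713 and 748 in pre2-2 and 860.0, 731 and 755 in pre3. These counts put the copy, and not the named gene, at the level of a ribosomal protein.

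Rpl34, of the large subunit, had 62.8, 32.8 and 46.9 in pre2-2 and 41.3, 32.1 and 39.7 in pre3 counts, against 1219, 892 and 771 in pre2-2 and 1124, 958 and 985 in pre3 for Rpl34-ps1. Rps23, at the decoding centre of the small subunit, had 181, 53.4 and 82.1 in pre2-2 and 105, 88.6 and 109 in pre3 counts, against 2114, 1551 and 1679.9 in pre2-2 and 1794, 1561 and 1654 in pre3 for Gm15450, now named Rps23-ps1. In both pairs the named gene held a small part of the sum, 3.24 to 5.74% for Rpl34 and 3.33 to 7.9% for Rps23.

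Within the coding sequence little separates a member from its copy. They were taken from GENCODE vM21 transcripts (GRCm38) tied to the RefSeq accessions of the files, and 60 bases of each pair are given with the differing base in capitals. Rps27 and Gm9846 (chromosomes 3 and 9) had no difference over 255 bases. Rps23 and Gm15450 (chromosomes 13 and 3) had none over the 425 of 432 bases compared. Rpl34 and Rpl34-ps1 (chromosomes 3 and 6) differed at 2 of 354 bases, T132C and C318G, with the member's base first and positions counted from the first base of the start codon.
Rps27: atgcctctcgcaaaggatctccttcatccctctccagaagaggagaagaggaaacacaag
Gm9846: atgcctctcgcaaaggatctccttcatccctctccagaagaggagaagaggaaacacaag
Rps23: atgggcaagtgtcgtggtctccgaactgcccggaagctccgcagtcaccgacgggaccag
Gm15450: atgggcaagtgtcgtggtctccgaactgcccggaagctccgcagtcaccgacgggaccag
Rpl34: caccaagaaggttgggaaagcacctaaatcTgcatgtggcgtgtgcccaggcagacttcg
Rpl34-ps1: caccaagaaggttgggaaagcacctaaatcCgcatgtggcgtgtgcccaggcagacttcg
The first 4 lines are bases 1 to 60 and the Rpl34 pair bases 102 to 161. A read that lies between the differing bases fits both genes of a pair equally, so the division of counts between them is RSEM's estimate and the levels of these 3 members are uncertain.

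**Figure D3:**
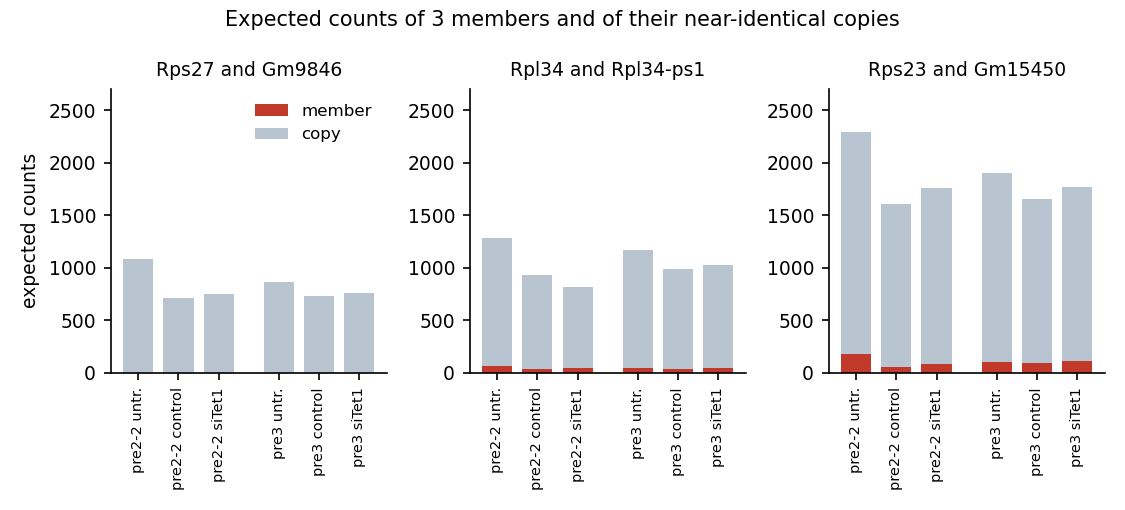
Expected counts of 3 members (red) and of their near-identical copies (grey), stacked, 1 bar per library. Red is absent for Rps27 and small for Rpl34 and Rps23, while each sum is of the size of a fully counted member.

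With member and copy summed, Rps27 came to a mean of 2386 TPM, Rpl34 to 2483 and Rps23 to 3655, inside the range of the other members. Over the whole set, 65 of 81 members had a non-whole expected count in 3 or more libraries at a tolerance of 0.005, which is 80.2% against 18.5% of all genes and 37.3% of genes with a mean count of 100 or more. Only Rps27, Rpl10l, Rpl39l and Rpl3l were whole throughout. A non-whole count does not show which gene shares the reads, and words of 50 bases found also in another gene of the files were present in 19 of 81 members only. Such words made up 54.2% of Rpl36 (shared with Gm13611), 45.1% of Rpl26 (Gm10136) and 30.7% of Rplp2 (Wdr89). Overlapping neighbours held such words as well, matched on either strand, with 45.3% of Rpl5 shared with Fam69a and 33.6% of Rps25 with Trappc4. Shared words do not show that reads were divided. Fam69a had 1.01 to 7.12 expected counts per library, and those of Trappc4 were whole in every library. Rps15a, of the small subunit, stood low at 264 TPM although its CPM ran from 581 to 793, since the length used for it was 7.46 times the median length of the members.

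Comparing siTet1 with control siRNA asks what knockdown of Tet1 did beyond transfection. No ribosomal protein gene was called (edgeR's quasi-likelihood test, adjusted p under 0.05 over 11048 genes), where 1.58% of all genes tested were, and the median log2 fold change of the 76 members was 0.01 beside 0.00 for all genes; 41 were above 0 and 35 below. At an unadjusted p under 0.05 there were 2 members, Rps25 among them, against 1196 of all 11048 genes tested. Neither DESeq2 nor limma called a member. Rps25, a small subunit protein near the exit site that some viral messengers need, had the lowest value at -0.34 (SE 0.10, adjusted p = 0.105).

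At the low end Rps25 was followed by Rpl14 at -0.19, Rpl11 at -0.16, Rps13 at -0.15 and Rpl7 at -0.12. At the high end were Rps23 at 0.38 and Rpl34 at 0.36, the members split with a copy, and Rpl35 at 0.19 and Rpl37 at 0.17. With the copies summed Rps23 came to 0.06 (SE 0.09, adjusted p = 0.891) and Rpl34 to -0.12 (SE 0.11, adjusted p = 0.779), so Rpl34 changed sign. When either untransfected library was left out, or only the 4 libraries compared were fitted with the line as replicate block, 2 members passed, 1 higher and 1 lower, the latter being Rps25 (adjusted p at most 1.97e-04, edgeR).

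Within the lines the members leaned in opposite directions. In pre2-2 the median log2 difference between siTet1 and control siRNA was -0.04, with 52 of 76 members lower, and in pre3 it was 0.05, with 54 of 76 higher. The interaction of line with siTet1 pooled the untransfected and control siRNA libraries of a line as controls. It is therefore not a test of this leaning, which is against control siRNA alone. Gene by gene the interaction called 0 of 11048 genes, members included, so 0% is its background. No member had an unadjusted p under 0.05 in it, against 270 of all genes tested, and limma and DESeq2 also called none.

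Transfection itself was assessed by control siRNA against untransfected cells. All 76 tested members had a negative log2 fold change, with a median of -0.20 beside 0.00 for all genes tested. Yet none was called, where 0.0996% of all genes were called lower and 1.48% in either direction. An unadjusted p under 0.05 was found for 42 of the 76 members, against 1016 of all 11048 genes tested. In pre2-2 all 76 members lay below the untransfected library (median -0.18), and in pre3 75 did (median -0.23), Rplp2 being the exception. The median was -0.21 for the 42 large subunit genes, -0.20 for the 30 small subunit genes and -0.20 for the 3 stalk genes. DESeq2 called 0 members and limma only Rpl3.

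Rpl3, which lies near the peptidyl transferase centre, stood at 2162, 1828 and 1865 in pre2-2 and 3094, 2503 and 2525 in pre3 CPM, with -0.27 (SE 0.08, adjusted p = 0.0992). The lowest values were those of Rps23 at -0.79 and Rpl34 at -0.43, again members split with a copy, then Rpl35a at -0.35, Rpl6 at -0.30 and Rpl37 at -0.30. Nearest to 0 were Rplp2 at -0.05, Rpl24 at -0.08, Rpl21 at -0.09, Rps13 at -0.10 and Rps27l at -0.13. Summed with its copy Rps23 came to -0.14 (SE 0.09, adjusted p = 0.735), within the range of the other members. Leaving out the untransfected pre3 library gave 24 members called lower, leaving out control siRNA of pre2-2 gave 0, and leaving out each of the others gave 1, which was Rpl3 without untransfected pre2-2 and Rps23 in the other 3.

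Measured beside this shift, the summed fibroblast markers were higher after control siRNA in both lines (1505 to 2706 TPM in pre2-2, 690.3 to 770.0 in pre3). Of the 9 markers Col1a1, Col1a2, Fbn1, Postn and Thy1 were called higher, against 153 of all 11048 genes tested. Length moved with the shift too. Of the tested members 72 were as short as the shortest 25% of the other genes, and those other genes had a median of -0.05 against 0.05 for the longest 25%. The part of the markers and of length in the result was not tested. Medians elsewhere were -0.07 for 76 mitochondrial ribosomal protein genes, -0.08 for 44 proteasome genes and -0.12 for 78 respiratory chain genes. The median was -0.13 for 20 genes, mostly of translation, listed as having an oligopyrimidine start (not checked here). For 32 ribosome biogenesis genes it was -0.03. No gene of these lists was called in this comparison. For ribosome biogenesis genes the median pools both lines. Their interaction of line with transfection (both siRNAs pooled, pre3 minus pre2-2) was above 0 for 32 of 32, with a median of 0.43. None was called, and 8 had an unadjusted p under 0.05, against 603 of all 11048 genes tested.

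Against untransfected cells, siTet1 gave 8 members called lower and 0 higher, where 1.63% of all genes tested were called lower and 6.55% in either direction. All 76 log2 fold changes were below 0, with a median of -0.18 beside 0.01 for all genes; this comparison shares its untransfected libraries with the one above, and the 2 are not independent. The untransfected library was the highest of its line in both lines for 72 of 76 members, against 14.2% of all genes tested; Rps23, Rpl37a and Rplp2 were among the others. Of the 8 called, 6 belong to the large and 2 to the small subunit. In the same comparison 6 of 9 fibroblast markers were called higher (Col1a1, Col1a2, Col3a1, Fbn1, Pdgfra and Postn), against 544 of all 11048 genes tested. The median over the 9 was 0.71. Of the 5 pluripotency markers tested, Dppa5a and Tdgf1 were called higher and none lower, with a median of 0.02. The shortest 25% of the other genes had a median of -0.04 against 0.06 for the longest 25%. The part of the markers and of length in the result was not tested.

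Rps25 stood at 774, 644 and 472 in pre2-2 and 948, 767 and 655 in pre3 CPM. In each line the untransfected library was the highest and siTet1 the lowest, and the log2 fold change was -0.62 (SE 0.10, adjusted p = 2.71e-04), the largest fall of any member. Rps25 overlaps Trappc4, a trafficking gene, on the other strand (GENCODE vM21), and counting by strand is not stated; Trappc4 was at 50.1, 41.5 and 60.4 in pre2-2 and 49.8, 48.5 and 41.5 in pre3 CPM, far lower, with 0.04 (SE 0.19, adjusted p = 0.951). Leaving out the siTet1 library of pre2-2 ended the call of Rps25, and it was the single member that DESeq2 also called; over all alternatives its adjusted p ran from 2.35e-11 to 0.991, the last without the line in the model.

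Rpl11, which with Rpl5 and 5S ribosomal RNA forms the particle that can bind Mdm2, stood at 889.9, 751 and 601 in pre2-2 and 1049.9, 854 and 853 in pre3 CPM and gave -0.43 (SE 0.10, adjusted p = 0.00847). The siTet1 library of pre2-2 was the lowest of the 6. Rpl5 gave -0.26 (SE 0.09, adjusted p = 0.0801), and Rpl23, which is not part of that particle, gave -0.16 (SE 0.09, adjusted p = 0.391). Rpl14, of the large subunit, stood at 1025, 869 and 761 in pre2-2 and 1120.2, 1014 and 891 in pre3 CPM and gave -0.38 (SE 0.09, adjusted p = 0.012). In each line its untransfected library was the highest and its siTet1 library the lowest, while untransfected pre2-2 lay above both transfected libraries of pre3.

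The 5 other members called were smaller in size: Rpl7 at -0.33 (SE 0.09, adjusted p = 0.0231), Rpl4, which reaches into the exit tunnel, at -0.32 (SE 0.08, adjusted p = 0.0151), Rpl6 at -0.31 (SE 0.09, adjusted p = 0.0346), Rpl27a at -0.30 (SE 0.09, adjusted p = 0.0457) and Rps2 at -0.27 (SE 0.08, adjusted p = 0.0409). Rpl7 stood at 1386, 1190.3 and 1077 in pre2-2 and 1626, 1430.1 and 1332 in pre3 CPM. Rpl4 stood at 2463, 2214 and 1969 in pre2-2 and 3106, 2590.1 and 2508 in pre3 CPM. Both were highest in the untransfected and lowest in the siTet1 library of each line. Rpl6 stood at 1558, 1237 and 1154 in pre2-2 and 1783, 1479 and 1565 in pre3 CPM. Rpl27a stood at 949, 842 and 777 in pre2-2 and 1156, 988 and 925 in pre3 CPM. Rps2, at the messenger entry, stood at 2639, 2170.0 and 2078 in pre2-2 and 2939.7, 2638 and 2572 in pre3 CPM. These 3 too were highest in the untransfected library of each line, and Rpl6 of pre3 was lowest with control siRNA. Rpl39 (-0.34) and Rps23 (-0.41, -0.08 (SE 0.09, adjusted p = 0.686) with its copy summed) were also among the 5 lowest values without being called, and among the highest were Rpl22 at -0.07, Rpl34 at -0.08, Rpl35 at -0.08 and Rpl37a at -0.08.

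The count of 8 moved with the libraries included. Without siTet1 of pre2-2 there were 0, without control siRNA of pre2-2 there were 3, without control siRNA or siTet1 of pre3 there were 2 each, and without the untransfected pre3 library there were 36; DESeq2 called 1. Ribosome biogenesis genes had a median of -0.11 in the same comparison and 3 of 32 fell, Ncl at -0.33 (SE 0.10, adjusted p = 0.0398), Nop56 at -0.42 (SE 0.11, adjusted p = 0.0228) and Npm1 at -0.47 (SE 0.09, adjusted p = 0.00223), all nucleolar proteins. Rpl22l1, the paralog of Rpl22, fell as well, at -0.50 (SE 0.15, adjusted p = 0.0351).

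**Figure D4:**
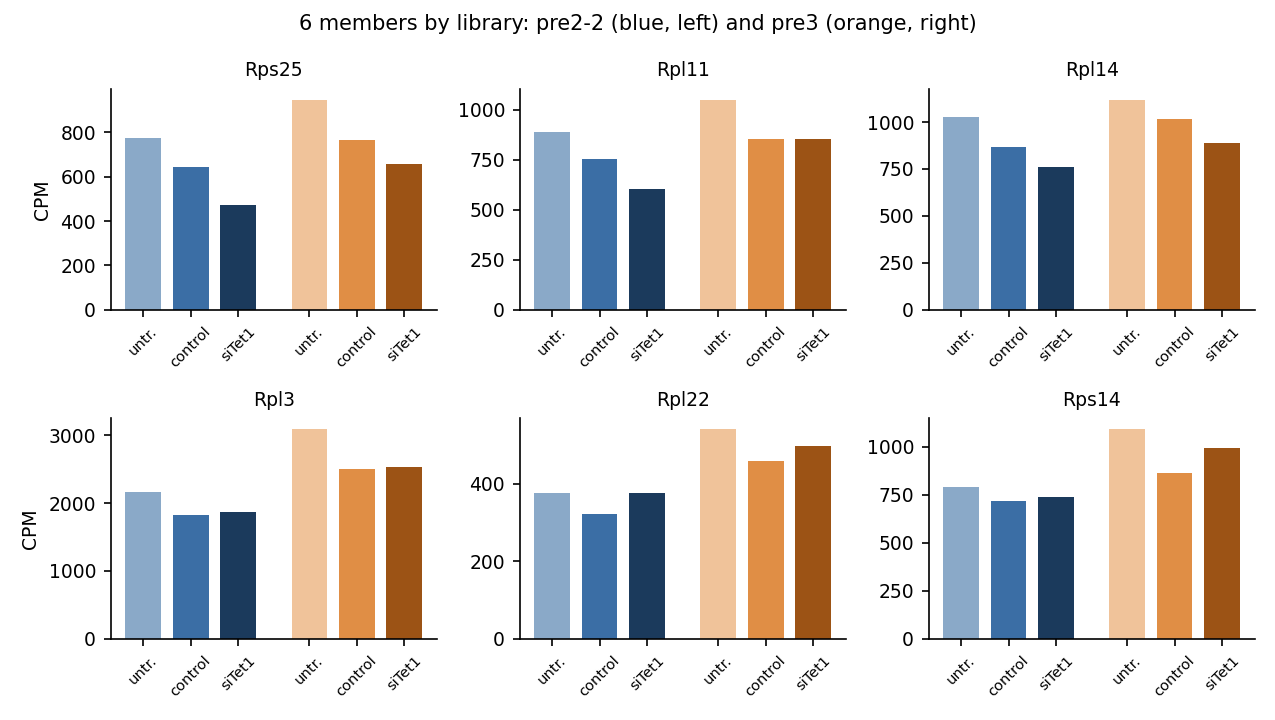
CPM with TMM scaling of 6 members, 1 bar per library (untransfected, control siRNA, siTet1 for pre2-2 in blue and pre3 in orange). Rps25, Rpl11 and Rpl14 step down towards siTet1 in pre2-2, and Rpl3, Rpl22 and Rps14 lie higher in all pre3 libraries than in any pre2-2 library.

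More members were called between the lines than in any comparison of treatments. In pre3 50 members were called higher than in pre2-2 and 0 lower, where 14.4% of all genes tested were called higher and 30.2% in either direction. The median log2 fold change over the 76 tested was 0.25 beside 0.00 for all genes, and 75 were positive; the exception was Rpl34 at -0.09, which came to 0.31 (SE 0.09, adjusted p = 0.00825) when summed with its copy. All 3 pre3 libraries lay above all 3 pre2-2 libraries for 34 of 76 members, against 18.8% of all genes tested. By treatment the median difference was 0.25 in untransfected, 0.22 in control siRNA and 0.31 in siTet1 libraries.

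Called members covered both subunits, 28 of 42 large subunit, 19 of 30 small subunit and 2 of 3 stalk genes, together with Rps27l. Rpl22, an RNA-binding large subunit protein, stood at 377, 322 and 376 in pre2-2 and 541, 459 and 496 in pre3 CPM, a mean of 358 ± 31.2 in pre2-2 and 499 ± 41.2 in pre3 (SD, n = 3), and gave 0.48 (SE 0.09, adjusted p = 1.40e-04), the highest value of the set. Rpl3 came to 1952 ± 183 in pre2-2 and 2707 ± 335 in pre3 (SD, n = 3) CPM and 0.47 (SE 0.07, adjusted p = 3.63e-06). In both genes every pre3 library lay above every pre2-2 library.

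Among small subunit genes Rps14, known from the 5q- form of anaemia, came to 749.6 ± 36.8 in pre2-2 and 985 ± 116 in pre3 (SD, n = 3) CPM and 0.39 (SE 0.08, adjusted p = 4.25e-04). Rps16 came to 837 ± 97.4 in pre2-2 and 1096 ± 129 in pre3 (SD, n = 3) CPM and 0.39 (SE 0.08, adjusted p = 5.34e-04), and its siTet1 and untransfected pre3 libraries (1147 and 1192) lay above the others. Rps20 gave 0.37 (SE 0.08, adjusted p = 5.83e-04) and Rpsa, the small subunit protein also known as a laminin receptor, 0.33 (SE 0.07, adjusted p = 3.43e-04).

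The other called members ran between the value of Rplp0 at 0.19 and that of Rps27l at 0.37 (SE 0.10, adjusted p = 0.00589). Lowest after Rpl34 were Rpl37a at 0.07, Rpl41 at 0.09, Rpl21 at 0.09 and Rps28 at 0.09, none of them called. Leaving out 1 library gave 12 to 65 called members (12 without siTet1 of pre3, 65 when the untransfected library of either line was left out, 16 to 19 without each of the others), DESeq2 gave 16, and Rpl3, Rpl4, Rpl5, Rpl22, Rpl26, Rps14, Rps20 and Rpsa were among those called in all 13 alternatives that tested them; they have non-whole counts in 3 or more libraries, so the alternative without such members leaves them out.

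**Figure D5:**
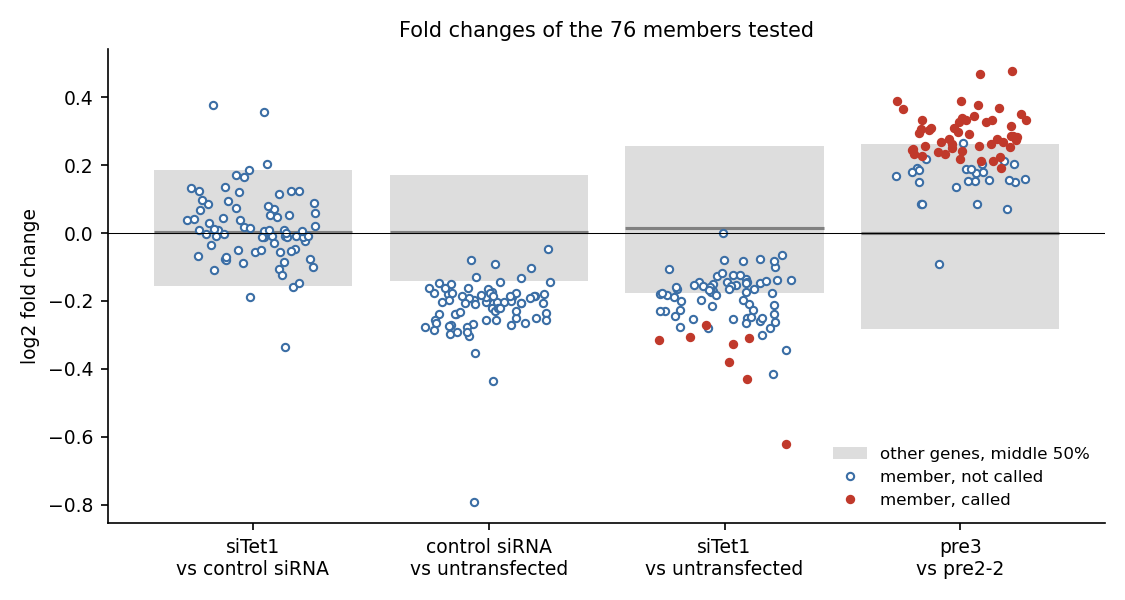
Log2 fold changes of the 76 members tested in 4 comparisons, 1 dot per member (red where called), over grey boxes for the middle 50% of the other genes tested and a line for their median. Members centre on 0 for siTet1 against control siRNA, lie below 0 for both comparisons with untransfected cells and above 0 for pre3 against pre2-2.

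Other genes of the translation apparatus differed between the lines in part. Of ribosomal proteins outside the rule, Fau gave 0.31 (SE 0.08, adjusted p = 0.00562) and Gnb2l1 0.24 (SE 0.07, adjusted p = 0.00841). Of 20 genes, mostly of translation, listed as having an oligopyrimidine start (not checked here), 8 rose. Among them were the elongation factors Eef1a1 at 0.29 (SE 0.05, adjusted p = 3.90e-05) and Eef2 at 0.24 (SE 0.06, adjusted p = 0.0024). Vim, which is not a translation gene, fell at -0.76 (SE 0.08, adjusted p = 4.27e-08). This list also holds Fau and Gnb2l1. Ribosome biogenesis genes did not share the rise, with a median of -0.06. Of 32, 1 was called higher (Nop10 at 0.48 (SE 0.12, adjusted p = 0.00438)) and 6 lower. Among all genes tested 14.4% were called higher and 1749 of 11048 lower, so the 6 are near the background. The 13 RNA polymerase I genes had a median of -0.10, with Polr1c called higher and Ubtf, Taf1c and Cd3eap lower.

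Medians of the comparison lists were 0.08 for mitochondrial ribosomal proteins, -0.02 for the proteasome and 0.18 for the respiratory chain. Of 76 mitochondrial ribosomal protein genes, Mrpl23, Mrpl36, Mrpl38, Mrpl41 and Mrps26 were called higher and Mrpl3 and Mrps18b lower. Of 44 proteasome genes none was called higher, and Psmb10, Psmc1, Psmc2 and Psme4 were called lower. Of 78 respiratory chain genes 12 were called higher and 0 lower. Among all genes tested 14.4% were called higher and 1749 of 11048 lower. The share of respiratory chain genes called higher was close to that of all genes. Among 17 tested genes of growth signalling, Myc, a transcription factor known to raise ribosome production, rose at 0.90 (SE 0.07, adjusted p = 3.98e-10), Mxi1, a Myc antagonist, at 0.82 (SE 0.14, adjusted p = 4.79e-05) and Tsc1, a brake on mTOR, at 0.47 (SE 0.15, adjusted p = 0.0205), whereas Tsc2 at -0.44 (SE 0.12, adjusted p = 0.00666) and Mycn at -1.60 (SE 0.38, adjusted p = 0.00233) fell. Myc stood at 989.7, 862 and 980.4 in pre2-2 and 1864, 1689.8 and 1738 in pre3 CPM. In the list of the 5S particle and p53, Mdm4 rose at 0.69 (SE 0.10, adjusted p = 8.45e-06), and Mdm2 at -0.46 (SE 0.10, adjusted p = 0.00128) and Trp53 at -0.26 (SE 0.10, adjusted p = 0.0432) fell.

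Beside the line difference, all 9 fibroblast markers were called lower in pre3 (median log2 fold change -1.50), against 1749 of all 11048 genes tested. Summed pluripotency markers were higher. Of the 5 pluripotency markers tested, Pou5f1, Dppa5a and Tdgf1 were called higher, Sall4 was called lower at -0.89 (SE 0.15, adjusted p = 6.87e-05), and Sox2 was at -0.18 (SE 0.09, adjusted p = 0.128). The shortest 25% of the other genes had a median of 0.07 and the longest 25% of -0.05. The part of the markers and of length in the result was not tested. The interaction of line with transfection called no member (0.00905% of all genes, edgeR). Rps23 alone of the members had an unadjusted p under 0.05, against 603 of all 11048 genes tested.

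Once the common shift of a library was taken out, few members stood apart. Deviations were computed as log2(TPM + 1) minus the member's mean over libraries minus the library's median over the 76 members with a mean of 10 TPM or more; of 456 values 5 exceeded 0.25 in size, in 3 members, against an SD of 0.08. Rps23 was at -0.63 in control siRNA and 0.56 in untransfected cells of pre2-2, and Rpl34 at 0.33 in siTet1 of pre2-2 and -0.27 in control siRNA of pre3, both genes split with a copy. Rps25 was the remaining one, at -0.35 in siTet1 of pre2-2. Next came Rpl11 at -0.24 in the same library, Rpl37 at -0.23 in control siRNA of pre3 and Rpl22 at -0.22 in control siRNA of pre2-2.

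Annotated starts of the members shared features that the rule did not use. The RefSeq promoter table (GRCm38.p6) held 60 members with 72 starts and 14315 genes of the files with 17556. A C at the start followed by at least 4 pyrimidines was found at 18.1% of member starts and 2.26% of all starts, and a C within 5 bases of the start followed by at least 4 pyrimidines at 41.7 and 18.7%. In the window from 250 bases before to 50 after the start, on both strands, CCGGAAG (the core bound by ETS factors such as Gabpa) was in 36.1% of member starts against 11.7%, CCATNTT (as in the Yy1 site) in 33.3 against 15.1%, GGGCGG (as in the Sp1 site) in 58.3 against 48.8%, CACGTG in 11.1 against 8.27% and TATAAA in 8.33 against 12.2%. These are matches of letters and not shown sites.

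Windows of the 7 members called lower in siTet1 against untransfected cells that the table holds are given to show how their annotated starts differ, from 25 bases before the start to 20 from it, with capitals from the first C within 5 bases of the start that at least 4 pyrimidines follow to the end of that run; the run itself can begin further upstream, as in Rpl14.
Rps25, chr9:44407689-44407733 (plus strand): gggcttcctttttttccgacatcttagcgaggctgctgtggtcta
Rpl11, chr4:136053374-136053418 (minus strand): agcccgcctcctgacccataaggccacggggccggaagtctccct
Rpl14, chr9:120571492-120571536 (plus strand): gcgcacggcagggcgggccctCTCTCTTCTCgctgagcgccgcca
Rpl4, chr9:64173362-64173406 (plus strand): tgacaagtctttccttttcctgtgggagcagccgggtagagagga
Rpl6, chr5:121204476-121204520 (plus strand): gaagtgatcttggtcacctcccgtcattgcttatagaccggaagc
Rpl27a, chr7:109519170-109519214 (plus strand): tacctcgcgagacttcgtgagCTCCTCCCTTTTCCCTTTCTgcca
Rps2, chr17:24720038-24720082 (plus strand): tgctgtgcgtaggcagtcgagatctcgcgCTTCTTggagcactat
Rpl14, Rpl27a and Rps2 have such a C, and Rps25, Rpl11, Rpl4 and Rpl6 have none that near to the annotated start.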

How the data were processed

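Total RNA was extracted with Trizol and libraries were made with the Illumina TruSeq RNA kit, per the labels. The authors deposited, per gene symbol and library, an expected count (estimated reads per gene, not normalized) and a fraction of transcripts that sums to 1; per the submitters' processing notes both come from RSEM 1.1.21 on mm9. Aligner settings and read length are not given in the sources used here. A series table with 6 columns was not used because 1 column name matches no sample.

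The tests used edgeR 4.0.16 in R 4.3.3 on expected counts rounded to whole numbers, with TMM (factors 0.982 to 1.01); filterByExpr, grouped by treatment at a count of 10, left 11048 genes. The model had line and treatment as terms over all 6 libraries; the quasi-likelihood test was two-sided, p-values were adjusted by Benjamini-Hochberg over the whole table of tested genes, and genes were called at an adjusted p under 0.05 (residual degrees of freedom 2, prior 23.2). An SE is the size of the log2 fold change divided by the root of its F value. Interactions were fitted with control siRNA and untransfected libraries pooled as controls, or both siRNAs pooled as transfected. The replicate number is the line, which is a term of the model. Same-line libraries deviated together from the means of their treatments (correlations 0.667 to 0.772). With 2 libraries per treatment the deviations of the 2 lines mirror each other. These values therefore restate the line difference and do not show a pairing of libraries. The fits were tested on simulated data. TPM are the deposited fractions rescaled. Floors cover counting error only.

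DESeq2 1.42.0, limma 3.58.1 (voom), other scalings, no filter, left-out libraries and the other alternatives are in the closing section. Summing 3 copies with their members was chosen after seeing the data. Some genes are not reported here by name. Members, lists and the rule for named genes (called members, the 5 highest and lowest of each comparison and of the levels, the 10 largest deviations, members not tested, paralogs, and called or abundant genes of other lists) were chosen with earlier results of these data known. No genome of build mm9 was used, so positions are those of the named references.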

Additional observations from a re-analysis of the deposited data

Results flagged for a closer look

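The median log2 difference of the 76 tested ribosomal protein genes between siTet1 and control siRNA was -0.04 (-0.0421) in pre2-2 and 0.05 (0.0523) in pre3. It was singled out because the 2 lines, with 1 library pair each, moved in opposite directions. The difference between the medians was not tested. Gene by gene the interaction of line with siTet1, which pools untransfected and control siRNA libraries as controls, called no member.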

How the results depend on the processing

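Counts of called members moved with the alternatives. For siTet1 against control siRNA (0 called), the 4 libraries alone with the line as replicate block gave 2, and leaving out 1 library 0 to 2. For control siRNA against untransfected (0 called), library totals, no filter, limma and the 4 libraries with the replicate block gave 1 each, and leaving out 1 library 0 to 24. For siTet1 against untransfected (8 called), library totals gave 5, DESeq2 1, no replicate block 0, the 4 libraries with the replicate block 2, and leaving out members with non-whole counts in 3 or more libraries 0, since few members are left; leaving out 1 library gave 0 to 36. For pre3 against pre2-2 (50 called), DESeq2 gave 16, leaving out members with non-whole counts 5, and leaving out 1 library 12 to 65. Both interactions stayed at 0 in all alternatives run; leaving out the only siTet1 library, or the only untransfected library, of a line leaves no estimate and was not run. The cause of the other changes was not tested.

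Medians kept their sign except for siTet1 against control siRNA, at -0.087 with controls pooled and -0.04 to 0.05 with 1 library left out. With 1 library left out they were -0.25 to -0.17 for control siRNA against untransfected, -0.24 to -0.16 for siTet1 against untransfected and 0.21 to 0.29 for pre3 against pre2-2, the last at 0.20 without members of non-whole counts. The pre3 to pre2-2 ratio of shares was 1.12 in transcripts and 1.19 in counts. Members whose sign changed included, for siTet1 against control siRNA, Rpl34 (-0.12 with copies summed), Rps23 (-0.079 with controls pooled) and Rpl37 (-0.027 to 0.35 with 1 library left out); for control siRNA against untransfected, Rplp2 (-0.14 to 0.043); for siTet1 against untransfected, Rpl34 (-0.19 to 0.038), Rps23 (-0.94 to 0.15) and Rpl37a (-0.18 to 0.0089), each over left-out libraries; and for the lines Rpl34 (0.31 with copies summed).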
